A study of Mus musculus with 6 samples.

Results

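The tumour necrosis factor (TNF) superfamily comprises cell-surface or secreted ligands and the receptors that bind them, and its members were followed in the livers of mice fed a diet that produces steatohepatitis. Members were taken by gene symbol: every symbol beginning with Tnfsf or Tnfrsf and a number, together with Tnf, Lta, Ltb, Ltbr, Fas, Fasl, Cd40, Cd40lg, Cd27 and Cd70. This gave 41 genes, 17 ligands and 24 receptors, of the 21899 genes in the deposited table. Liver polyA RNA came from wild-type C57BL6J mice kept for 6 weeks on a diet sufficient in methionine and choline (MCS, 3 libraries) or deficient in both (MCD, 3 libraries). The age and sex of the mice are not given in the sources used here. The MCD diet is a nutritional model in which mice also lose body weight, which sets it apart from the human disease it stands for. Whether each library came from its own mouse is not stated in the labels, and the p-values then speak only of library-to-library spread, which may be technical.

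TNF superfamily ligands are mostly trimers made as type II membrane proteins, many of which are cut from the cell surface by proteases. Their receptors carry cysteine-rich extracellular repeats and signal inside the cell either by binding TRAF adaptors, which lead to the canonical and non-canonical NF-kappaB pathways and to MAP kinases, or through a death domain that recruits TRADD or FADD and can activate caspase-8. In the liver, TNF, FAS and TRAIL signalling are known for hepatocyte death, lymphotoxin and TNF for regeneration, and TWEAK acting on its receptor FN14 for the expansion of ductular and progenitor cells.

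Total counts ran from 16615469 to 21322771 per library, so that 3 counts in a library corresponded to 0.104 to 0.227 CPM (counts scaled to a fixed library total, relative to library sizes scaled by the trimmed mean of M values, TMM). Hepatocyte markers (Alb, Apoa1, Ttr and others, 8 in all) summed to between 55200 and 109600 CPM in the 6 libraries, and none was at 0. By the test given below, 2 of the 8 fell on MCD (Tat and Serpina1c) and 0 rose, with a median log2 fold change of −0.685. MCD replicate 3 had the lowest hepatocyte sum of the 6 libraries and the highest sums of the macrophage, T and NK cell, B cell, neutrophil, dendritic cell, stellate cell and cholangiocyte markers. Replicate 3 of the MCS diet also stood apart, with sinusoidal endothelial markers at 391.9 CPM against 98.0 and 135.8 CPM in MCS replicates 1 and 2. Each call of a member that rests on a single library is given with its value without that library.

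The promoters shown here are those of the 2 called receptors with the smallest p-values, Tnfrsf12a and Tnfrsf11a, and of Tnfsf13, which with Tnfsf12 (not shown) makes up the 2 called ligands, so that the stretch of DNA where transcription factors could act on the changed genes can be read. Each is the 250 bases before the RefSeq transcription start on GRCm38.p6, written 5′ to 3′ on the strand of the gene. The promoter of Ltb is added, chosen after its motif was seen, since it holds the only kappaB match among the 16 tested members that have a window. Capitals mark a match to the kappaB consensus, which NF-kappaB dimers recognise, or to the AP-1 motif TGANTCA, which JUN and FOS dimers recognise.
Tnfrsf12a (chr17:23677450-23677699, minus strand): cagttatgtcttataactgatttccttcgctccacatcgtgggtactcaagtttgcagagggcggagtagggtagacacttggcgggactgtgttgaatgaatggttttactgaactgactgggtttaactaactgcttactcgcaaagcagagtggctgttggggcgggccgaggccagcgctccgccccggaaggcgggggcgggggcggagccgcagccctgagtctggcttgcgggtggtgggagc
Tnfrsf11a (chr1:105780473-105780722, plus strand): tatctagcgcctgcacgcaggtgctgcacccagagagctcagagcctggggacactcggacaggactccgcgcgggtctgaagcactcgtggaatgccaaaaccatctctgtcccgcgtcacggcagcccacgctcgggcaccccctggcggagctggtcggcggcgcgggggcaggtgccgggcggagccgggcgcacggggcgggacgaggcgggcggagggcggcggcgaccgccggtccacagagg
Tnfsf13 (chr11:69685555-69685804, minus strand, AP-1 match in capitals): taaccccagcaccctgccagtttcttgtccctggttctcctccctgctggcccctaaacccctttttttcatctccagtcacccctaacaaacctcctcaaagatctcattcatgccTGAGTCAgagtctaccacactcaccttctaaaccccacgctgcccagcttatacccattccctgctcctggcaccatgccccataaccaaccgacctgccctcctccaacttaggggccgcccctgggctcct
Ltb (chr17:35194257-35194506, plus strand, kappaB match in capitals): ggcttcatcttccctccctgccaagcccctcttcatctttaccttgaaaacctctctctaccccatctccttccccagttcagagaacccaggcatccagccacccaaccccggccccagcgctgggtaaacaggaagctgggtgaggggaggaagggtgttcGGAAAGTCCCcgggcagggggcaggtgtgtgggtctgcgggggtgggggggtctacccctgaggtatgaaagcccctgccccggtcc
Both motifs were searched on both strands in the windows of 31 of the 41 members that matched by symbol (35 windows, as some genes have more than 1 start). A kappaB match occurred in 7.25% of the 32851 mouse windows of this length and in the windows of 4 members, Ltb (beginning 87 bases before the start), Tnfrsf25, Tnfrsf8 and Tnfrsf9. An AP-1 match occurred in 6.75% of all windows and in those of 6 members, Tnfsf13 (133 bases before the start), Fas, Tnfrsf8, Tnfrsf9, Tnfsf13b and Tnfsf14. In the windows shown the matches do not overlap each other. Among the 7 members that rose on MCD and have a window, 0 held the kappaB letters and 1 held the AP-1 letters. The Tnfrsf11a window stood out for base composition, with 73.6% G and C and 31 CpG dinucleotides, against a median of 52.4% G and C over all windows. A match is a description of these letters and not a measured binding site.

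Of the 41 members, 22 had enough counts to be tested (6 ligands and 16 receptors) and 19 did not. On MCD, 10 of the 22 rose (2 ligands and 8 receptors), 12 were not called and 0 fell. The members that rose were the TWEAK receptor Tnfrsf12a and its ligand Tnfsf12, the receptor for RANKL Tnfrsf11a, the TRAIL receptor Tnfrsf10b, the TRAIL decoy receptor Tnfrsf23, the death receptor Tnfrsf21, the receptor Tnfrsf13b and the ligand Tnfsf13 of the APRIL and BAFF group, Cd40, and the orphan receptor Tnfrsf19. Over all 12599 tested genes, 14.8% rose and 9.97% fell by the same test, edgeR's quasi-likelihood test with Benjamini-Hochberg adjustment at an adjusted p under 0.05. At an unadjusted p under 0.05, 0 members were lower on MCD by edgeR or limma-voom and 1 was by DESeq2, and neither of those tools called any member down. The count of members that rose was 5 without MCS replicate 1 or MCD replicate 1 and 6 without MCS replicate 2. The median log2 fold change of the tested members was 1.23, beside 0.0145 for all tested genes.

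**Figure D1:**
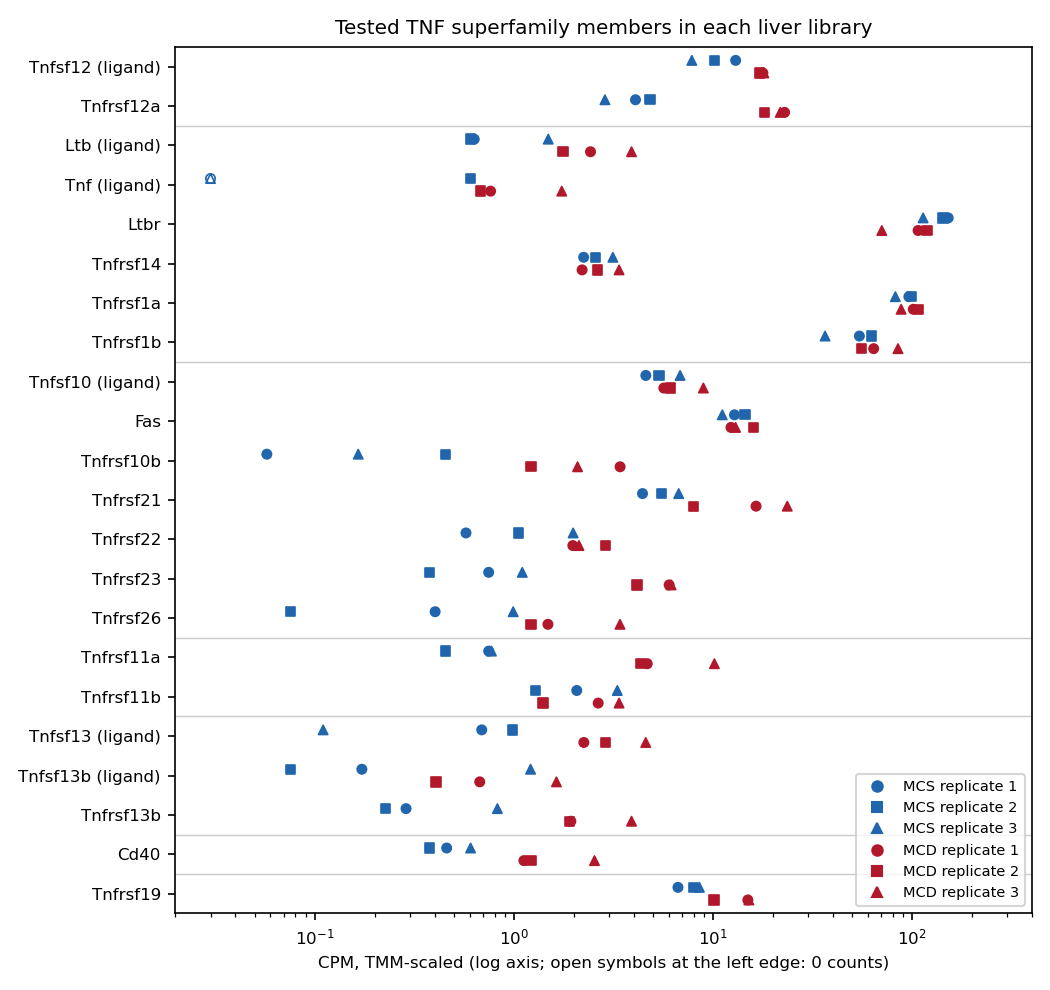
CPM of the 22 tested members in each of the 6 libraries on a log axis, grouped by signalling group, with MCS in blue and MCD in red and 1 symbol for each replicate; open symbols at the left edge stand for 0 counts. In 13 members every MCD library lies above every MCS library, and the widest gaps are those of Tnfrsf12a, Tnfrsf11a, Tnfrsf23 and Tnfrsf10b.

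Every MCD library exceeded every MCS library in 13 of the 22 members, beside 23.9% of all tested genes, and the diets overlapped in the other 9. In no tested member did every MCD library lie below every MCS library. A member that is nearly silent on MCS can pass the count filter only through its MCD libraries and must then be higher there, so the members were also split by their MCS level. Of the 11 members above the filter level of 0.485 CPM in all 3 MCS libraries, 4 rose (Tnfrsf12a, Tnfsf12, Tnfrsf19 and Tnfrsf21), beside 12.1% of the genes above that level. The median log2 fold change of these 11 was 0.30. Of the 9 above the level in 1 or 2 MCS libraries 5 rose, and of the 2 above it in no MCS library (Tnf and Tnfrsf10b) 1 rose. Of all 12599 tested genes 1861 rose, and 1367 of these were among the 11262 genes above the level in all 3 MCS libraries. The remaining tested genes, the class of these members, thus rose more often than the 12.1% given above. Over all 40 members with any count, 36 had a higher mean CPM on MCD and 4 a lower one, beside 53.1% of 16582 genes with a higher mean. MCD replicate 3 was the highest MCD library for 16 of the 22 tested members, beside 42.4% of all tested genes. These are whole-liver libraries, in which fewer cells of a type and less RNA per cell cannot be told apart.

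**Figure D2:**
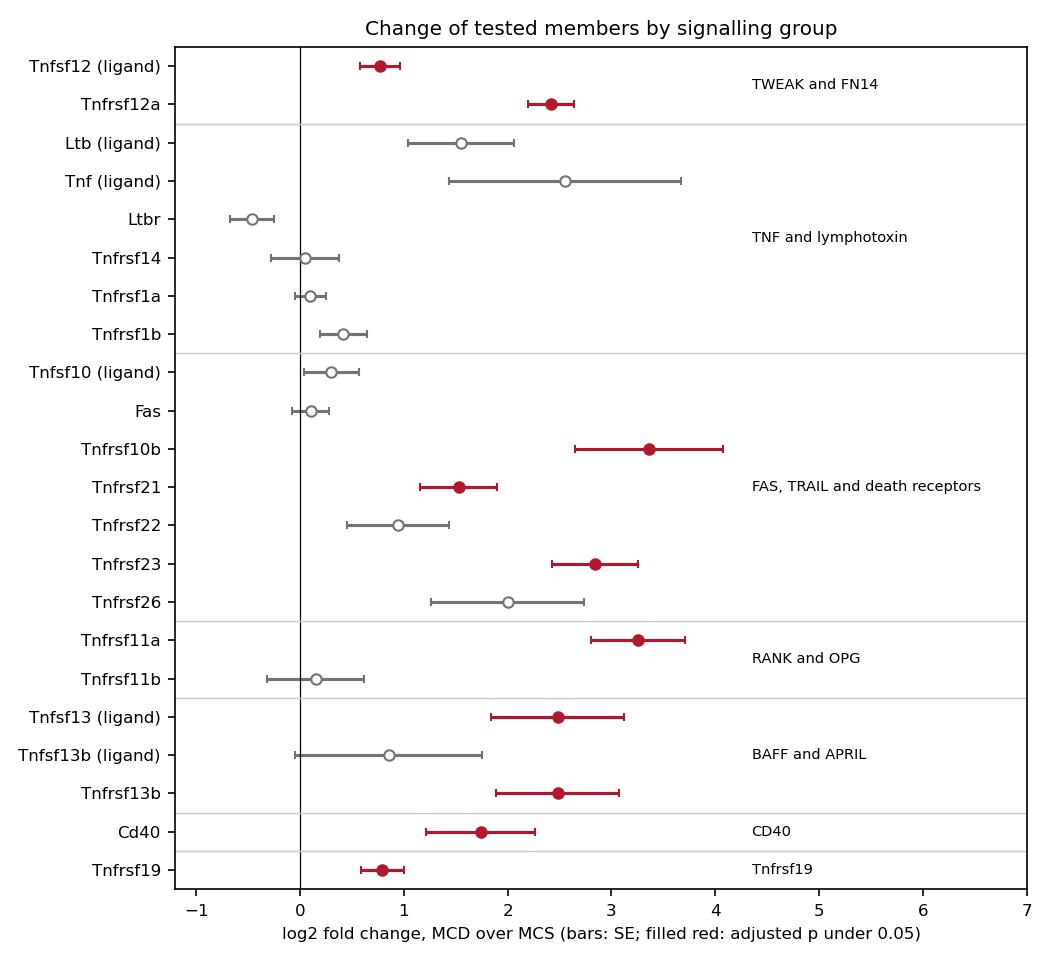
Log2 fold change, MCD over MCS, of the 22 tested members with its standard error, by signalling group; filled red points passed the test and open grey points did not. The called members run from 0.77 for Tnfsf12 to 3.36 for Tnfrsf10b, and Ltbr is the only member with a negative estimate, which was not called.

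Both members of the TWEAK group rose. Tnfrsf12a encodes FN14, the receptor for TWEAK, which is low in healthy tissue and is known to be induced by injury. Tnfrsf12a (ENSMUSG00000023905), whose promoter is the first shown, was at 4.08, 4.84 and 2.87 CPM in MCS replicates 1 to 3 and at 22.9, 18.1 and 21.8 CPM in MCD replicates 1 to 3. The diets were far apart and the MCD libraries lay within a narrow range of one another. Its log2 fold change was 2.42 ± 0.22 (SE, adjusted p = 0.000424, 5.35-fold), the smallest p of the members. Tnfsf12 (ENSMUSG00000097328), which encodes the ligand TWEAK, was at 13, 10.2 and 7.83 CPM on MCS and at 17.8, 17.1 and 18.01 CPM on MCD. The 3 MCD libraries were nearly level and all exceeded the MCS libraries, for a log2 fold change of 0.77 ± 0.20 (adjusted p = 0.0227). The receptor call held in each fit without 1 library, whereas the ligand call was lost on leaving out any of MCS replicates 2 and 3 and MCD replicate 1 (adjusted p between 0.0518 and 0.0820). Within a library, the ratio of Tnfrsf12a to Tnfsf12 in TPM (a level corrected for transcript length) was 0.459, 0.595 and 0.535 on MCS and 1.71, 1.55 and 1.77 on MCD. The ligand thus had the higher level in every MCS library and the receptor in every MCD library, a ratio chosen after its values were seen and given without a test.

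Genes linked to FN14 signalling in ductular and progenitor cells mostly rose as well. Of 8 listed genes, 7 were tested and 6 rose, beside 14.8% of all tested genes, with a median log2 fold change of 2.54. At an unadjusted p under 0.05 by edgeR, and by DESeq2 and limma-voom, 0 of them was lower. The count that rose was 4 without MCS replicate 2 or MCD replicate 1. Cd24a, a surface glycoprotein of progenitor cells, was at 2.19, 1.89 and 3.20 CPM on MCS and at 18.1, 11.2 and 29.7 CPM on MCD (log2 fold change 3.01 ± 0.38, adjusted p = 0.00165). Epcam, an epithelial adhesion molecule, rose by 2.54 ± 0.38 (adjusted p = 0.00302). Krt19, a keratin of bile duct cells, was not called (1.34 ± 0.48, adjusted p = 0.0709). Epcam, Sox9, Krt7 and Krt19 are also bile duct markers, and the 6 bile duct markers summed to 24.0 to 27.9 CPM on MCS and 38.0 to 57.7 CPM on MCD. Spp1, another of the listed genes that rose, is also among the markers of recruited and lipid-associated macrophages. The part that more bile duct cells play in the levels of Tnfrsf12a was not tested.

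None of the 6 tested members of the TNF and lymphotoxin group passed the test. By edgeR, 2 were higher at an unadjusted p under 0.05 (Tnf and Ltb), DESeq2 called 1 (Ltb) and limma-voom called 1 (Tnf). Tnf (ENSMUSG00000024401), the founding ligand of the family, had 0, 8 and 0 counts on MCS and 17, 15 and 50 counts on MCD, or 0, 0.604 and 0 CPM against 0.765, 0.679 and 1.74 CPM. Every MCD library lay above every MCS library, yet MCD replicate 2 and MCS replicate 2 were close. No MCS library of Tnf was above the filter level, which is taken on unscaled library totals. Tnf could thus be tested only through its MCD libraries and had to be higher there. The log2 fold change was 2.56 ± 1.12 (adjusted p = 0.125), and it was 1.37 without both replicate 3 libraries. Without MCS replicate 2 the MCS libraries that were left had 0 counts and Tnf passed (adjusted p = 0.0272). Its fitted change then has no meaning as a size.

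Ltb (ENSMUSG00000024399), which encodes lymphotoxin beta, the membrane partner of lymphotoxin alpha, was at 0.633, 0.604 and 1.49 CPM on MCS and at 2.43, 1.77 and 3.90 CPM on MCD. The libraries did not overlap, but MCS replicate 3 was close to MCD replicate 2. Its log2 fold change of 1.55 ± 0.51 narrowly missed the threshold (adjusted p = 0.0537). It passed without MCS replicate 3 (2.12, adjusted p = 0.0357), without MCD replicate 2 (adjusted p = 0.0247) and by DESeq2 (adjusted p = 0.0237). The other ligands of the group were at the edge of detection. Lta, which encodes lymphotoxin alpha, had 4, 0 and 0 counts on MCS and 0, 0 and 1 on MCD, and Tnfsf14, which encodes LIGHT, had 7, 0 and 6 on MCS and 8, 2 and 11 on MCD. Neither gene was tested.

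Tnfrsf1a and Ltbr were the most abundant members in the liver, and the CPM of all 4 receptors of this group overlapped between the diets. Tnfrsf1a (ENSMUSG00000030341), the TNF receptor with a death domain found on most cells, was at 96.4, 99.1 and 82.4 CPM on MCS and at 101.4, 108.0 and 88.1 CPM on MCD. In each diet replicate 3 was the lowest, and the log2 fold change was 0.10 ± 0.15 (adjusted p = 0.657). Ltbr (ENSMUSG00000030339), the receptor for lymphotoxin and LIGHT that drives the non-canonical NF-kappaB pathway, was at 152, 143 and 114 CPM on MCS and at 107, 119 and 70.5 CPM on MCD. It was the only tested member with a lower estimate on MCD, by −0.46 ± 0.22 (adjusted p = 0.147), and MCD replicate 2 exceeded MCS replicate 3. Scaled by library size alone, Ltbr turned to 0.06, beside a shift of the median of all genes from 0.0145 to 0.571 under that scaling. Tnfrsf1b, the TNF receptor without a death domain that is prominent on leukocytes, was at 54.4, 62.6 and 36.6 CPM on MCS and at 64.1, 55.8 and 84.9 CPM on MCD. The replicate 3 libraries held its lowest and its highest value, and the log2 fold change was 0.42 ± 0.23 (adjusted p = 0.204). Tnfrsf14, the receptor HVEM that binds LIGHT, ranged from 2.203 to 3.378 CPM over the 6 libraries (0.05 ± 0.33, adjusted p = 0.933).

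Among the 10 members of the FAS, TRAIL and death receptor group, 7 were tested and 3 rose, all receptors, beside 14.8% of all tested genes. Tnfrsf10b (ENSMUSG00000022074), the death-domain receptor for TRAIL, was at 0.0575, 0.453 and 0.166 CPM on MCS and at 3.42, 1.22 and 2.09 CPM on MCD. MCS replicate 1 was below the level of 3 counts, whereas every MCD library was well above it. No MCS library of Tnfrsf10b was above the filter level, so it could be tested only through its MCD libraries and had to be higher there. Its log2 fold change of 3.36 ± 0.71 (adjusted p = 0.0119) was the largest of the tested members, and the call was lost without MCD replicate 1 (2.92, adjusted p = 0.0528). Without MCS replicate 2 it was 4.25. Tnfrsf21 (ENSMUSG00000023915), death receptor 6, was at 4.43, 5.52 and 6.73 CPM on MCS and at 16.5, 7.96 and 23.6 CPM on MCD. MCD replicate 2 was only slightly above the highest MCS library, and the change was 1.53 ± 0.37 (adjusted p = 0.0209). This call was lost by limma-voom (adjusted p = 0.0710) and on leaving out any of MCS replicates 1 and 2 and MCD replicate 1 (adjusted p between 0.0627 and 0.0836).

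Tnfrsf23, Tnfrsf22 and Tnfrsf26 lie next to one another in the genome, and the mouse proteins of Tnfrsf22 and Tnfrsf23 are decoy receptors that bind TRAIL without a death domain. Tnfrsf23 (ENSMUSG00000037613) was at 0.748, 0.378 and 1.10 CPM on MCS and at 6.03, 4.16 and 6.16 CPM on MCD. The diets were separated by a wide gap, and the change of 2.84 ± 0.41 (adjusted p = 0.00259) held in each fit without 1 library. Tnfrsf22 ranged from 0.575 to 1.99 CPM on MCS and from 1.98 to 2.90 CPM on MCD (0.94 ± 0.49, adjusted p = 0.190). It passed without both replicate 3 libraries (1.60, adjusted p = 0.0407). Tnfrsf26 ranged from 0.0756 to 0.993 CPM on MCS and from 1.22 to 3.41 CPM on MCD (1.999 ± 0.74, adjusted p = 0.0775). It passed by DESeq2, without MCS replicate 3 and without MCD replicate 2. Because Tnfrsf22 and Tnfrsf23 are close copies, reads may have been divided between them in the authors' estimates and their single values are uncertain. The sum of the 3 genes was at 1.73, 1.51 and 4.08 CPM on MCS and at 9.49, 8.28 and 11.7 CPM on MCD (1.99 ± 0.38, adjusted p = 0.00778).

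The abundant FAS receptor and the TRAIL ligand were not called. Fas (ENSMUSG00000024778), the receptor for FAS ligand, was at 12.8, 14.5 and 11.1 CPM on MCS and at 12.3, 15.9 and 12.99 CPM on MCD. The ranges overlapped almost wholly, with a log2 fold change of 0.10 ± 0.17 (adjusted p = 0.700). Tnfsf10, which encodes TRAIL, was at 4.60, 5.36 and 6.84 CPM on MCS and at 5.67, 6.11 and 8.95 CPM on MCD (0.30 ± 0.27, adjusted p = 0.430). Fasl, the FAS ligand of cytotoxic lymphocytes, was too sparse to test, with 0, 0 and 1 counts on MCS and 3, 3 and 9 on MCD. Tnfsf15, which encodes TL1A, had 0 counts in all MCS libraries and 1, 2 and 11 on MCD. Tnfrsf25, the receptor for TL1A, had 2, 0 and 2 counts on MCS and 0, 1 and 0 on MCD.

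In the RANK group the receptor rose while its soluble decoy was not called. Tnfrsf11a (ENSMUSG00000026321) encodes RANK, which is best known for driving osteoclast formation from myeloid cells. It was at 0.748, 0.453 and 0.772 CPM on MCS and at 4.68, 4.34 and 10.2 CPM on MCD. MCD replicate 3 was well above the other MCD libraries, which themselves lay far above the MCS range. The log2 fold change was 3.25 ± 0.45 (adjusted p = 0.00215, 9.54-fold), and it passed in each fit without 1 library. Tnfrsf11b, which encodes osteoprotegerin, the secreted decoy that binds RANK ligand, was at 2.07, 1.28 and 3.31 CPM on MCS and at 2.65, 1.403 and 3.38 CPM on MCD. Replicate 3 was the highest and replicate 2 the lowest on either diet, and its log2 fold change was 0.15 ± 0.46 (adjusted p = 0.837). In TPM, the ratio of Tnfrsf11a to Tnfrsf11b was 0.203, 0.198 and 0.131 on MCS and 0.988, 1.74 and 1.69 on MCD, a description chosen after its values were seen. Tnfsf11, which encodes RANK ligand itself, had 0 counts in all MCS libraries and 1, 0 and 2 on MCD.

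The BAFF and APRIL group, which is known for the survival of B cells and plasma cells, had 3 tested members. Of these 2 rose, beside 14.8% of all tested genes. Tnfsf13 (ENSMUSG00000089669), which encodes the ligand APRIL, was at 0.690, 0.982 and 0.110 CPM on MCS and at 2.25, 2.90 and 4.60 CPM on MCD. MCS replicate 3 had only 2 counts and MCD replicate 3 was the highest. The change was 2.48 ± 0.64 (adjusted p = 0.0239), fell to 1.63 without both replicate 3 libraries while still passing, and was lost without MCS replicate 1 (adjusted p = 0.0757). Tnfrsf13b (ENSMUSG00000010142) encodes TACI, a receptor for both ligands. It was at 0.288, 0.227 and 0.827 CPM on MCS and at 1.93, 1.90 and 3.90 CPM on MCD. The replicate 3 library was the highest in each diet, and the change was 2.48 ± 0.59 (adjusted p = 0.0183). This call was lost on leaving out either of MCS replicates 1 and 2 (adjusted p between 0.0694 and 0.0755), and the change was 3.29 without MCS replicate 3. Tnfsf13b, which encodes BAFF, ranged from 0.0756 to 1.21 CPM on MCS and from 0.407 to 1.64 CPM on MCD (0.85 ± 0.90, adjusted p = 0.519), and its estimate moved from 2.78 without MCS replicate 3 to 0.09 without MCD replicate 3.

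The receptors that mark mature B cells and plasma cells in this group were close to absent. Tnfrsf13c, the BAFF receptor of mature B cells, had 0 counts in all MCS libraries and 4, 2 and 6 on MCD, and Tnfrsf17, which encodes BCMA of plasma cells, had 1 count in all, in MCD replicate 3. The 7 B cell and plasma cell markers summed to 3.55 to 8.61 CPM on MCS and to 7.60 to 17.9 CPM on MCD. Of the 3 that were tested, Cd22 rose. Pan-macrophage markers, whose cells can also carry TACI and APRIL, summed to 454 to 530 CPM on MCS and to 1293 to 2835 CPM on MCD, and all 9 rose. The part of either cell type in the values of Tnfsf13 and Tnfrsf13b was not tested.

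Of the 12 members that act as costimulators between lymphocytes and antigen-presenting cells, only Cd40 had enough counts to be tested. Cd40 (ENSMUSG00000017652), the receptor through which T cells license macrophages, dendritic cells and B cells, was at 0.460, 0.378 and 0.607 CPM on MCS and at 1.12, 1.22 and 2.54 CPM on MCD. The diets did not overlap and MCD replicate 3 was the highest library. The log2 fold change was 1.74 ± 0.52 (adjusted p = 0.0406), the weakest of the calls. It was lost by limma-voom (adjusted p = 0.0789), without both replicate 3 libraries (1.46, adjusted p = 0.114), and without any single library other than MCD replicate 2 (adjusted p = 0.0714 to 0.134). Its ligand Cd40lg, made by activated T cells, had 0, 0 and 6 counts on MCS and 0, 0 and 3 on MCD.

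The other 10 costimulatory members had between 0 and 22 counts in any library and get no fold change. Tnfrsf9, the receptor 4-1BB, had 0, 0 and 1 counts on MCS and 2, 0 and 22 on MCD, nearly all of them in MCD replicate 3. Tnfsf8, the ligand of CD30, had 0 counts in all MCS libraries and 1, 2 and 14 on MCD, again mostly in MCD replicate 3. Cd27, a receptor of T and NK cells, had 1, 2 and 1 counts on MCS and 2, 7 and 13 on MCD. Its ligand Cd70 had 0 counts in all 6 libraries. Tnfrsf18, which encodes GITR of regulatory T cells, had 1, 0 and 1 counts on MCS and 6, 5 and 4 on MCD, and Tnfsf18, its ligand, had 0 on MCS and 1, 0 and 3 on MCD. Tnfrsf4, which encodes OX40, had 0, 2 and 0 counts on MCS and 3, 2 and 3 on MCD, and Tnfsf4, its ligand, had counts in MCD replicate 3 alone, 3 in number. Tnfrsf8, which encodes CD30, had 0, 0 and 3 counts on MCS and 2, 1 and 8 on MCD. Tnfsf9, the ligand of 4-1BB, had 1, 0 and 1 counts on MCS and 7, 3 and 8 on MCD. The 11 T and NK cell markers summed to 4.199, 5.52 and 7.45 CPM on MCS and to 7.56, 5.11 and 14.9 CPM on MCD, so MCD replicate 3 led in these as well. The part of lymphocyte numbers in the counts of these members was not tested.

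Tnfrsf19 (ENSMUSG00000060548), the orphan receptor TROY that is known as a target of WNT signalling, was at 6.67, 8.01 and 8.55 CPM on MCS and at 15.0, 10.1 and 15.2 CPM on MCD. MCD replicate 2 was the closest to the MCS range but still above it. The log2 fold change was 0.79 ± 0.21 (adjusted p = 0.0269), and the call was lost on leaving out any of MCS replicates 1 and 2 and MCD replicates 1 and 3 (adjusted p between 0.0512 and 0.107).

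Levels of different members were compared in TPM, which corrects for transcript length, and only within a diet. On MCS the receptor order was Ltbr at 88.1 ± 9.76 TPM (mean ± SD, n = 3), Tnfrsf1a at 58.8 ± 3.15, Tnfrsf1b at 19.8 ± 2.51, Fas at 12.7 ± 0.636 and Tnfrsf12a at 5.42 ± 1.14. Each of these was separated from the next by more than their SDs, whereas Tnfrsf12a and the receptor below it, Tnfrsf14 at 4.93 ± 1.71 TPM, overlapped in their libraries and could not be ordered. On MCD, Tnfrsf1a at 100.3 ± 8.30 TPM and Ltbr at 99.9 ± 12.2 TPM could not be ordered, and neither could Tnfrsf12a at 47.3 ± 12.4 and Tnfrsf1b at 40.2 ± 15.9. Fas followed at 20.6 ± 1.89 TPM, below Tnfrsf1b by more than their SDs. Tnfrsf12a made up 2.67%, 3.20% and 2.28% of the summed TPM of the 24 receptors in the MCS libraries and 14.0%, 11.1% and 14.2% in the MCD libraries. The share of Ltbr and Tnfrsf1a together was 75.3%, 74.2% and 72.0% on MCS and 58.7%, 63.9% and 48.0% on MCD. No share overlapped between the diets in either case.

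**Figure D3:**
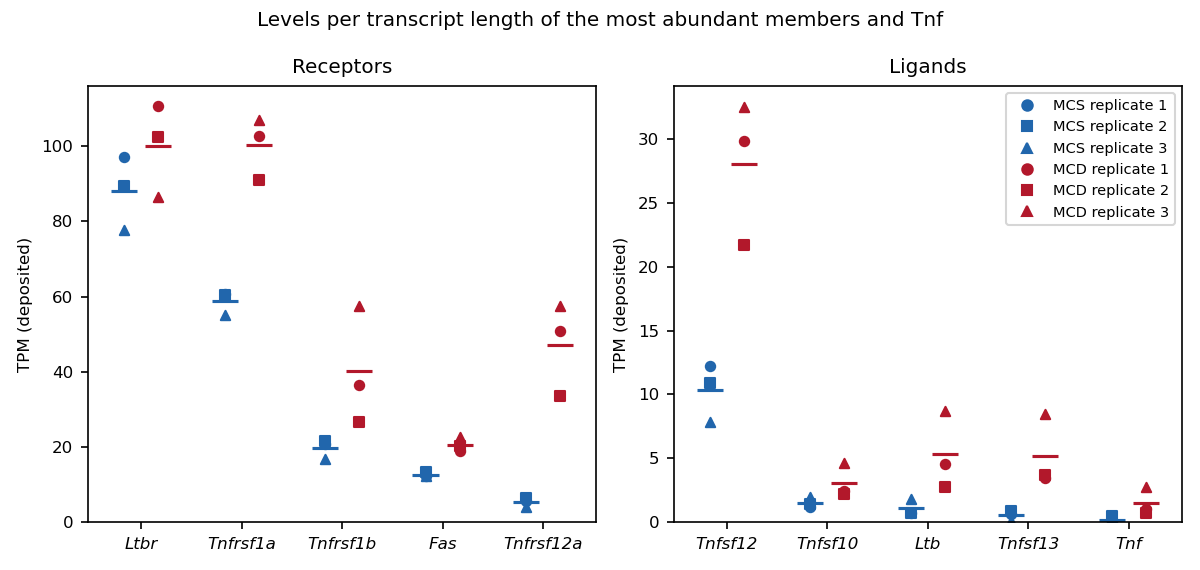
Level in TPM, on linear axes, of the 5 receptors and 5 ligands shown, with 1 point for each of the 3 libraries of a diet and a bar at their mean. Tnfrsf12a has a mean of 5.42 TPM on MCS, the lowest of the 5 receptors drawn, and of 47.3 TPM on MCD, where its libraries overlap those of Tnfrsf1b; Tnfsf12 leads the ligands on both diets.

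Among the ligands, Tnfsf12 was the most abundant on both diets, at 10.3 ± 2.22 TPM on MCS and 28.0 ± 5.63 TPM on MCD. It made up 78.4%, 75.2% and 60.5% of the summed ligand TPM on MCS and 68.7%, 67.9% and 52.7% on MCD, and these ranges overlapped. Tnfsf10, Ltb and Tnfsf13 were at 1.55, 1.10 and 0.548 TPM on MCS, where the libraries of Ltb overlapped those of both others. On MCD, Ltb at 5.36 TPM, Tnfsf13 at 5.21 TPM and Tnfsf10 at 3.11 TPM overlapped in their libraries and could not be ordered, and Tnf was at 1.51 ± 1.09 TPM. TPM values of the diets are not set against each other gene by gene, since the median log2 change of all tested genes was 0.53 on the log2(TPM + 1) scale.

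Members often lie side by side in the mouse genome: 20 of the 41 have another member as their nearest annotated neighbour, in 12 adjacent pairs. The neighbours Tnfsf13 and Tnfsf12 both rose, and another gene that spans them, Tnfsfm13, rose as well (0.74 ± 0.23, adjusted p = 0.0439). Since these 3 genes overlap, reads may be divided among them, and the sum was at 18.1, 17 and 14.7 CPM on MCS and at 30.4, 28.1 and 32.7 CPM on MCD (0.87 ± 0.14, adjusted p = 0.00359). The call of Tnfsfm13 alone was lost on leaving out any of MCS replicates 1 and 2 and MCD replicates 1 and 3, and with a replicate block (adjusted p = 0.0531). The neighbours Ltb, Tnf and Lta, none of them called singly, summed to 0.863, 1.21 and 1.49 CPM on MCS and to 3.19, 2.44 and 5.68 CPM on MCD (1.67 ± 0.43, adjusted p = 0.0240). Of the neighbours Tnfrsf26, Tnfrsf22 and Tnfrsf23, 1 of 3 was called. The sums were added after the data were seen.

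The authors' deposited table gives its own FDR, by a test that the sources used here do not name, and 17 members were higher on MCD there at an FDR under 0.05, beside 20.5% of its 21899 genes. None was lower there. All 10 members called here were among the 17. The other 7 were Fas, Tnfrsf22, Tnfrsf26, Ltb, Tnf, Tnfrsf1a and Tnfrsf1b. In the present counts, Fas, Tnfrsf1a and Tnfrsf1b passed only when libraries were scaled by total count alone (log2 fold changes 0.65, 0.64 and 1.02) or on a TPM scale. Under scaling by total count 15 members rose, beside 40.4% of all tested genes.

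Superfamily genes outside the symbol rule and genes that act with the members were followed as fixed lists, chosen with earlier results of these data known. Of 6 superfamily genes that carry other symbols, 5 were tested and 2 rose, beside 14.8% of all tested genes. Eda2r, a receptor for ectodysplasin A2 that is known as a p53 target, was at 0.115, 0 and 0.441 CPM on MCS and at 4.54, 1.45 and 4.88 CPM on MCD. Its change of 4.15 ± 0.83 (adjusted p = 0.00949) was 5.69 without MCS replicate 3. No MCS library of Eda2r was above the filter level, so it could be tested only through its MCD libraries and had to be higher there. Tnfsfm13, described above, was the other. Ngfr was not called (1.27 ± 0.45, adjusted p = 0.0714).

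Among genes that act between receptor and nucleus, 5 of 29 adaptors and proximal signalling genes rose and 2 fell, with a median log2 fold change of 0.15. These shares are near those of all tested genes, 14.8% up and 9.97% down. Without MCS replicate 2 or MCD replicate 1, 3 rose, and 0 fell without either of these or without MCS replicate 1. Map3k14, the kinase NIK that starts the non-canonical pathway downstream of FN14, LTBR, RANK and CD40, was at 2.47, 2.57 and 3.42 CPM on MCS and at 8.50, 7.33 and 8.46 CPM on MCD (1.52 ± 0.24, adjusted p = 0.00379). Mlkl, the executor of necroptosis, rose by 1.46 ± 0.26 (adjusted p = 0.00568), and Traf1, Traf3 and Birc2, which bind receptor tails or regulate NIK, were the others that rose. Traf1 was below the filter level in every MCS library, so it could be tested only through its MCD libraries and had to be higher there. Otulin, a deubiquitinase that trims linear chains at TNF receptor complexes, fell by 0.52 ± 0.13 (adjusted p = 0.0211), a call lost on leaving out any of MCS replicates 1 and 2 and MCD replicate 1, and turned to 0.022 with scaling by library size alone. Traf4 was the other that fell.

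Of 11 NF-kappaB subunits and inhibitors 6 rose, beside 14.8% of all tested genes. At an unadjusted p under 0.05 by edgeR, DESeq2 or limma-voom, 0 were lower. Tnfaip3, which encodes the ubiquitin-editing brake A20, was at 2.36, 2.04 and 2.32 CPM on MCS and at 16.9, 18.3 and 20.3 CPM on MCD (3.04 ± 0.19, adjusted p = 8.67e-05). Tnip1, a partner of A20, rose by 1.76 ± 0.18 (adjusted p = 0.000606). Relb and Nfkb2, the subunits of the non-canonical pathway, rose by 2.67 ± 0.28 and 1.19 ± 0.16, whereas Rela, the main canonical subunit, was not called (0.06). Nfkbie and Nfkb1 also rose.

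**Figure D4:**
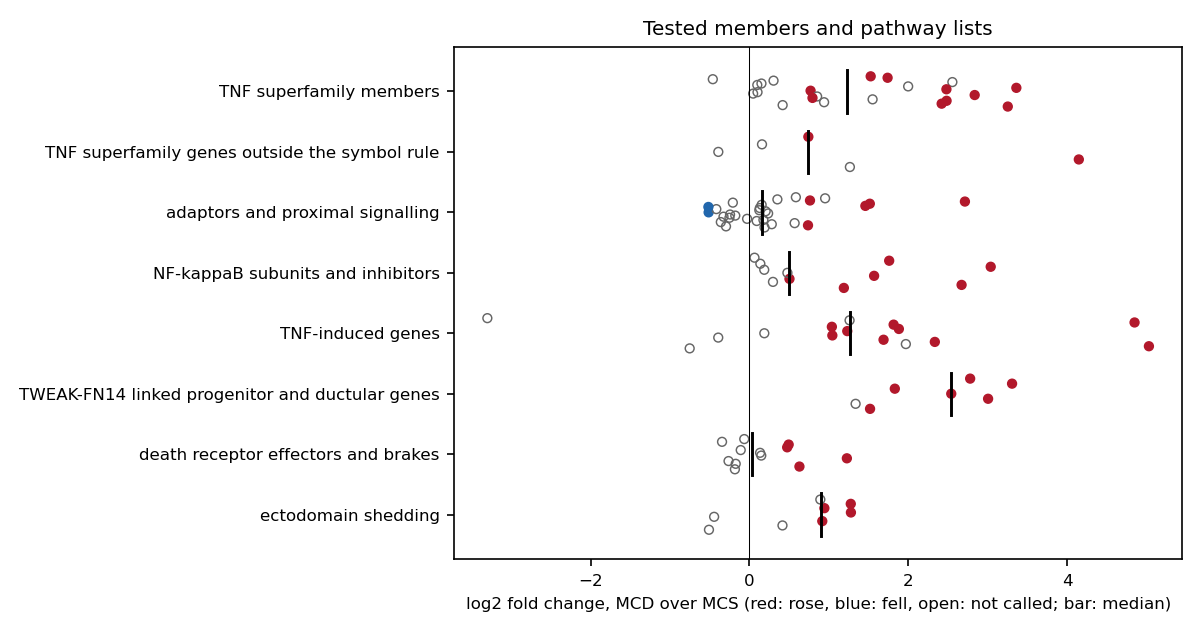
Log2 fold change, MCD over MCS, of each tested gene in the superfamily and in 7 lists of genes linked to it, with red points for genes that rose, blue for those that fell, open points for those not called and a bar at the median. The medians run from 0.03 for the death receptor effectors to 2.54 for the genes linked to TWEAK and FN14, with 1.23 for the superfamily members.

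Genes that TNF is known to induce gave a mixed picture. Of 20 listed, 15 were tested and 9 rose, beside 14.8% of all tested genes. Cxcl2 and Ccl2, both among those that rose, were below the filter level in every MCS library. They could be tested only through their MCD libraries and had to be higher there. Icam1, a leukocyte adhesion molecule, was at 11.2, 9.07 and 9.38 CPM on MCS and at 39.9, 34.7 and 34.6 CPM on MCD (1.88 ± 0.14, adjusted p = 0.000202), and Tnfaip2 rose by 1.23 ± 0.21 (adjusted p = 0.00458). None passed in the other direction by edgeR, 1 gene was lower at an unadjusted p under 0.05, and DESeq2 called 1 and limma-voom 0. The acute-phase genes Saa3 and Lcn2 had lower estimates on MCD (−3.30 and −0.75, not called), with MCS replicate 3 at 3.03 and 15.2 CPM, far below MCS replicates 1 and 2. Without MCS replicate 3, 2 genes of the list were called down.

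Of 13 death receptor effectors and brakes, 12 were tested and 4 rose, beside 14.8% of all tested genes, with a median of 0.03. Bax, which opens the mitochondrial outer membrane, rose by 1.23 ± 0.17 (adjusted p = 0.00217), and Bcl2l1, which opposes it, by 0.48 ± 0.13 (adjusted p = 0.0286). The Bcl2l1 call was lost on leaving out any of MCS replicates 1 and 2 and MCD replicate 1, and the count of the list was 1 without any 1 of these and 2 without MCS replicate 3. A count of 1 gene was lower at an unadjusted p under 0.05 by each of edgeR, DESeq2 and limma-voom, with 0 called down. Faim2, a brake on FAS signalling that was too sparse to be tested, had 16, 8 and 15 counts on MCS and 0, 0 and 1 on MCD, so every MCD library lay below every MCS library. With no count filter 1 gene of the list was called down. Of 8 genes for the shedding of ligands and receptors 4 rose, beside 14.8% of all tested genes, with a median of 0.91. Rhbdf2 and Rhbdf1, the iRhom proteins that carry the sheddase ADAM17 to the cell surface, rose by 0.92 ± 0.17 (adjusted p = 0.00778) and 1.28 ± 0.25 (adjusted p = 0.00876), and Adam17 and Adam10 were the others. In that list edgeR and limma-voom called 0 down and DESeq2 called 1, and 1 gene was lower at an unadjusted p under 0.05 by each. The count of the list that rose was 3 without any 1 of MCS replicates 1, 2 and 3 and MCD replicates 1 and 3.

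Markers of some cell types differed between the diets and those of others did not. Of the 7 sinusoidal endothelial markers 0 were called, and of the 8 hepatocyte markers 2 fell. By edgeR 6 hepatocyte markers were lower at an unadjusted p under 0.05, and DESeq2 called 6 down. Markers of recruited and lipid-associated macrophages summed to 63.6 to 89.4 CPM on MCS and to 769 to 1973 CPM on MCD, with all 8 of 8 up, while those of resident Kupffer cells, of which 2 of 5 fell, summed to 282 to 353 CPM on MCS and 219 to 381 CPM on MCD. Stellate cell and myofibroblast markers summed to 155 to 277 CPM on MCS and to 332 to 1520 CPM on MCD, with 3 of 8 up. Neutrophil markers summed to 3.17 to 4.78 CPM on MCS and to 7.15 to 25.4 CPM on MCD, with 2 of the 4 tested up (Csf3r and Mmp8). Mmp8 had 1 count in all on MCS, so it could be tested only through its MCD libraries and had to be higher there. Ly6g, too sparse to be tested, had 4 counts in all on MCS and 0 on MCD. Dendritic cell markers summed to 5.52 to 8.16 CPM on MCS and to 7.47 to 16.9 CPM on MCD, with 1 of the 5 tested up. Their part in the levels of Tnfrsf11a, Tnfrsf21, Tnfrsf10b, Cd40 and the other members that rose was not tested. Without both replicate 3 libraries 12 members were called up. Of the 10 members called in all libraries, Tnfrsf12a, Tnfrsf11a and Tnfrsf23 kept their call in each of the 6 fits without 1 library, and 7 lost it in at least 1.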

How the data were processed

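Liver polyA RNA was measured in 3 MCS and 3 MCD libraries, grouped by the diet in their titles. The submitters' processing notes name RSEM, StringTie 1.3.1, HISAT2 2.1.0, Bowtie2 2.2.8 and fastp 0.18.0, without their roles, and the build GRCm39. The annotation, any filter on reads and whether strand was used are not given in the sources used here, so a gene and an antisense or overlapping neighbour cannot be told apart. The deposited table gives estimated counts as whole numbers and TPM for each gene and library (in 64 cells the count is 0 although the TPM is not). It also gives the authors' mean TPM, log2 fold change, p-value and FDR; the authors' log2 fold changes and p-values were used only where named.

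The deposited counts were tested with edgeR 4.0.16 (R 4.3.3): filterByExpr by diet with a minimum count of 10, which asks for about 0.485 CPM in 3 libraries and left 12599 genes, then TMM scaling, a robust quasi-likelihood fit with diet as the only term, and Benjamini-Hochberg adjustment over all tested genes. TMM factors were 0.797 to 0.873 for MCS and 1.04 to 1.41 for MCD. SE was obtained as the absolute log2 change over the root of the F statistic. Replicates of a diet differed by more than sampling noise (chi-square over its degrees of freedom, 13.7 to 155.2). Alternatives were scaling by library size alone or by relative log expression, DESeq2 1.42.0, limma-voom (limma 3.58.1), other filters, TPM with a pseudocount of 1 or 0.1, a replicate block, an adjusted p under 0.01 and leaving out each library; the fit without both replicate 3 libraries and the sums of neighbouring genes were added after the data were seen.

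The members, their grouping by role and the gene lists were chosen with earlier results of these data known. Every member is named. Called members are given in full, others by their ranges or counts, except Tnf, Tnfrsf1a and the most abundant member of each group; Ltb, Tnfrsf1b, Tnfsf10 and Tnfrsf11b are also given in full, a choice made after their values were seen. Named from each list are the 2 called genes of smallest p in its main direction and 1 in the other; further genes of a list were chosen after their values were seen. Gene neighbours come from RefSeq by symbol (41 matched) and promoters from RefSeq on GRCm38.p6. The printed positions of the promoters are on GRCm38.p6, which is not the build of the deposited table (GRCm39). No other gene coordinates are printed. Scripts were tested on simulated data. Floors cover counting error only.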

Additional observations from a re-analysis of the deposited data

How the results depend on the processing

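The direction of the 10 called members was the same under every alternative that kept them (a minimum count of 30 dropped Cd40 and Tnfrsf10b), and 0 members were called down under any of them. The members that rose numbered 10 in all libraries, 5 to 12 with 1 library left out, 16 on either TPM scale and 3 at an adjusted p under 0.01 (Tnfrsf12a, Tnfrsf11a and Tnfrsf23). Over all 12599 tested genes 1861 rose, 946 to 2270 with 1 library left out. By library size 5095 of them rose, and on the TPM scales 5449 (pseudocount of 1) and 5718 (pseudocount of 0.1). The 16 members on the TPM scales thus stand beside a far larger count of all genes. On the library-size and TPM scales the median log2 change of all genes moved to 0.57 (library size), 0.53 (pseudocount of 1) and 0.65 (pseudocount of 0.1), and Ltbr turned to 0.06, 0.18 and 0.18 and Otulin to 0.022, 0.12 and 0.12. Other reversals, all in members not called, came with 1 library left out: Fas ran from −0.034 (without MCD replicate 2) to 0.20, Tnfrsf11b from −0.15 (without MCD replicate 3; −0.11 without MCS replicate 2) to 0.56, and Tnfrsf14 from −0.14 (without MCD replicate 3; −0.06 without MCS replicate 1) to 0.19. Of the lists, adaptors called up numbered 15 by library size, 18 and 18 on the TPM scales, 3 at an adjusted p under 0.01 and 3 to 6 with 1 library left out, and adaptors called down 0, 0, 0, 0 and 0 to 2, with 1 by limma-voom. NF-kappaB genes called up numbered 10 by library size and on both TPM scales. Death receptor effectors called up numbered 7 by library size, 7 and 8 on the TPM scales, 1 at an adjusted p under 0.01 and 1 to 4 with 1 library left out, and 1 was called down with no count filter and 0 to 1 with 1 library left out. The list counts called up by library size and on the TPM scales stand beside the larger counts of all genes under those settings, given above. TNF-induced genes called down numbered 1 by DESeq2 and 0 to 2 with 1 library left out. Shedding genes called up numbered 2 at an adjusted p under 0.01, and 1 was called down by DESeq2 and 0 to 1 with 1 library left out. Superfamily genes outside the symbol rule called up numbered 1 at an adjusted p under 0.01 and 1 to 3 with 1 library left out. Beyond the settings' own construction, the cause was not tested. Same-numbered MCS and MCD libraries correlated in their deviations by 0.063, 0.147 and 0.246. Every library correlated best with its own number except MCS replicate 1, which did so with MCD replicate 2 (0.132). The labels name no pairing, so the numbers were not taken to pair the samples in the main fit. A replicate block gave 12 members called up, with Ltb (adjusted p = 0.0212) and Tnfrsf26 (adjusted p = 0.0221) added, and lost the call of Tnfsfm13 (adjusted p = 0.0531). Depth limits the 19 untested members, none of which had over 24 counts in a diet.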
